A study of Mus musculus with 4 samples.

Results

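The genes described here encode 9 subunits of Polycomb repressive complex 1, or PRC1: the RING subunits Ring1 and Rnf2, the PCGF subunits Bmi1, Pcgf2 and Pcgf1, and the CBX subunits Cbx2, Cbx6, Cbx7 and Cbx8. They were chosen by name, and all 9 were found among the 21690 features measured. Expression was read from 4 RNA-seq libraries of neural precursors made from an A2lox mouse embryonic stem cell line that carries a doxycycline-inducible knockdown of Geminin, a small nucleoprotein encoded by Gmnn. In 3 knockdown libraries, from independent experiments, the cells received 500 ng doxycycline from day 3 of neural differentiation in N2B27 medium and were harvested on day 5. In 1 control library the same line was grown without doxycycline and harvested on day 5, so the control has no replicate. Every library thus comes from the knockdown line, which the labels place among clonal derivatives of A2lox propagated with mouse embryonic fibroblasts as feeders. Doxycycline and loss of Geminin cannot be told apart, since they always occur together in these libraries.

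PRC1 keeps developmental genes silent by attaching ubiquitin to histone H2A and by compacting chromatin. Every PRC1 holds a RING subunit, which is the ubiquitin ligase, paired with a PCGF subunit, and the PCGF subunit sets the type of complex. Canonical complexes with BMI1 or PCGF2 also hold a CBX subunit, whose chromodomain reads the histone H3 mark left by PRC2, whereas variant complexes, such as the one built on PCGF1, are recruited by other means. In mouse embryonic stem cells Cbx7 is known as the main CBX gene and Cbx2 and Cbx8 gain ground on differentiation, while Bmi1 is known for keeping neural stem cells dividing through repression of the Cdkn2a locus.

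Gmnn had an FPKM (fragments mapped, scaled to exon length and to the library's total) of 27.0, 65.9 and 27.9 in knockdown libraries 1, 2 and 3, against 113 in the control, which left 24.0%, 58.4% and 24.7% of the control level. The authors' deposited tables each set 1 knockdown library against the same control and mark features as significant, and Gmnn was marked in libraries 1 and 3. By the series' own criterion, named the study's rule below, a feature counts as changed with marks in at least 2 of 3 tables, here also required to go 1 way. The calls came mostly from libraries 2 and 3, on which 370 of them rested alone. The deposited tables marked 130 features higher and 217 lower in library 1, 469 and 293 in library 2, and 489 and 188 in library 3. The libraries also differed in cell type markers. Summed over 9 measured neuron markers, FPKM was 141 in the control and 151, 583 and 291 in libraries 1, 2 and 3, and 6 of the 9 rose. Stmn2 went the other way in libraries 2 and 3, with 75.4, 44.6 and 40.5 FPKM against 66.9. It was marked lower in library 3 only. The summed FPKM of 10 pluripotent cell markers was 74.4, 327 and 535 against 54.5, and 8 rose. That of 10 epithelial markers was 525, 60.3 and 170.0 against 472, and 9 fell. That of 10 fibroblast markers was 118, 108 and 167 against 111, and 2 rose, with Lum listed at 0 in the control. Fn1 gave most of the fibroblast sum, with 89.1, 63.6 and 95.4 FPKM against 85.3. Over the 7 fibroblast markers later tested with limma, the median log2 ratio of knockdown to control was 0.06, 0.72 and 1.19. Col1a1, Col1a2 and Col3a1 were marked higher in library 3 only. The 10 neural precursor markers, all detected, summed to 588, 763 and 623 against 589, and 0 were called. Of these, Hes5 was marked lower in library 1 only, with 6.28, 27.6 and 16.1 FPKM against 14.3. Notch1 was marked higher in library 3 only, with 11.6, 17.7 and 21.2 FPKM against 12.8. In bulk RNA, more cells of a type and more RNA per cell cannot be told apart. Relative to the control, libraries 1, 2 and 3 had a depth of 1.00, 1.15 and 0.972, while absolute depth is unknown.

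Bmi1 and Cbx7 rose and the other 7 PRC1 subunits were not called. In libraries 2 and 3 both genes were at about double their control level, and in library 1 they were at 120% and 112% of it. Of all features with enough usable tests, 1.98% were called higher and 0.905% lower by the study's rule. None of the 9 genes was called lower. None was marked lower in any of the 3 deposited tables, where 1.52%, 2.02% and 1.28% of features were, so a count of 0 among 9 is near the background. Marked higher were 0 members in library 1, 2 in library 2 and 2 in library 3, where 0.909%, 3.23% and 3.33% of features were marked higher. The 3 knockdown values lay on 1 side of the control for 5 of the 9 genes, with Bmi1, Cbx7 and Rnf2 above it and Pcgf2 and Cbx2 below it. Among all 11968 features tested with limma, 45.6% had their 3 knockdown values on 1 side of the control, so that count is near the background.

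**Figure D1:**
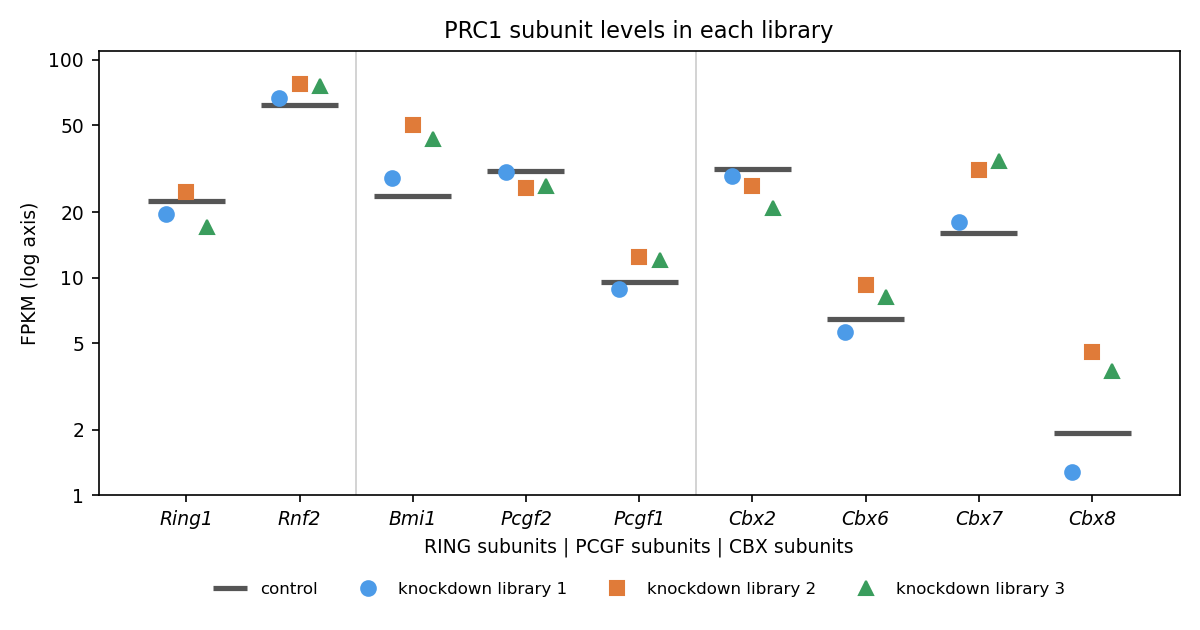
FPKM of the 9 PRC1 subunits on a log axis, with the control library as a bar and each knockdown library as a point. Bmi1 and Cbx7 lie near the control bar in library 1 and well above it in libraries 2 and 3, while Pcgf2 and Cbx2 lie at or below it in every knockdown library.

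Bmi1, the PCGF subunit of canonical PRC1 best known from neural stem cells, lies on chromosome 2 from 18598644 to 18608256 (mm9). Control cells had 23.7 FPKM, and knockdown libraries 1, 2 and 3 had 28.5, 49.995 and 43.2. Every knockdown library was higher than the control, library 1 by the least. The mean was 40.6 ± 10.97 FPKM (SD, n = 3), and the level was 120%, 211% and 182% of the control. The authors' deposited tables gave q-values of 0.196, 0.000393 and 0.00379, so libraries 2 and 3 were marked. The 95% interval implied by the deposited test was 1.04 to 1.39-fold in library 1, 1.52 to 2.93-fold in library 2 and 1.35 to 2.46-fold in library 3. Gmnn was at 24.0%, 58.4% and 24.7% of its control level in libraries 1, 2 and 3, and its relation to Bmi1 was not tested. The neuron and pluripotent cell marker sums were high in the same libraries as Bmi1, as was the median log2 ratio of the fibroblast markers. The fibroblast marker sum was 108 in library 2, against 111 in the control. The epithelial marker sum was low in libraries 2 and 3, at 60.3 and 170.0 against 472. The part of these cells in the result was not tested.

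Cbx7, the chromodomain subunit that predominates in stem cells, lies on chromosome 15 from 79746236 to 79763076. Control cells had 16.1 FPKM, and knockdown libraries 1, 2 and 3 had 18, 31.1 and 34.5. Here too every knockdown library was higher and library 1 was nearest to the control. The mean was 27.8 ± 8.69 FPKM (SD, n = 3), at 112%, 193% and 215% of the control. The deposited q-values of the authors' tables were 0.661, 0.0212 and 0.00120. The intervals were 0.938 to 1.34-fold, 1.31 to 2.85-fold and 1.51 to 3.06-fold. Cbx7 was highest in library 3, where the pluripotent cell and fibroblast marker sums were also highest. Bmi1 was highest in library 2, where the neuron marker sum was highest and the epithelial marker sum lowest. With 3 libraries this order is a description, and the part of any of these cell types in it was not tested.

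The promoters of Bmi1 and Cbx7 are shown because these are the members that rose. Of the 9 genes, 7 were matched by symbol in the RefSeq promoter table (GRCm38.p6), a different build from the mm9 coordinates above. Each line gives the 250 bases before the start site, 5′ to 3′ on the gene's strand. Capitals mark the E-box CACGTG, the GC box GGGCGG or its reverse complement CCGCCC, and the CCAAT box CCAAT or ATTGG, searched on both strands, and adjacent GC boxes may overlap. The Bmi1 window is chr2:18676768-18677017 on the plus strand and the Cbx7 window is chr15:79932647-79932896 on the minus strand.
Bmi1: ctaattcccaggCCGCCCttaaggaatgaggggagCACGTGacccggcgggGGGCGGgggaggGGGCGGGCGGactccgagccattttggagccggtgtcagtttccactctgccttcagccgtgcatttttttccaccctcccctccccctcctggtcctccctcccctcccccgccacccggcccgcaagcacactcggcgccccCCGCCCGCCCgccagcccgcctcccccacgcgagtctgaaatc
Cbx7: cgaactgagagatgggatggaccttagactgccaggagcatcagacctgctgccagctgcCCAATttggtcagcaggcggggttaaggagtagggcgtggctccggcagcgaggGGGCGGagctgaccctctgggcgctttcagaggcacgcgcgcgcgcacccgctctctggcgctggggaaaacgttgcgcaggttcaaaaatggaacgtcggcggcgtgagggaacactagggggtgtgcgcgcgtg
The Bmi1 window held 1 E-box, 6 GC boxes and 0 CCAAT boxes, and the Cbx7 window held 0, 1 and 1. Both were rich in CpG dinucleotides, with 21 in Bmi1 and 23 in Cbx7 against a median of 6 over all 32851 promoter windows of this length.

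Among the matched windows, 4 of 7 held the E-box, against 6.02% of all windows and 10.1% of the 5896 windows with at least 20 CpG. The 4 sites are shown with 10 bases on each side because only that of Bmi1 belongs to a gene that rose, and here capitals mark the E-box alone. They lie at chr2:18676793-18676818 on the plus strand for Bmi1, and on the minus strand at chr11:97699770-97699795 for Pcgf2, chr15:79834344-79834369 for Cbx6 and chr11:119040996-119041021 for Cbx8.
Bmi1: atgaggggagCACGTGacccggcggg
Pcgf2: ggaatgaggtCACGTGggtgagtagt
Cbx6: cccggagcatCACGTGacggcccgca
Cbx8: tcgttagcaaCACGTGgggcgggagg
All 7 windows held a GC box, against 32.7% of all windows, and 6 of the 7 had at least 20 CpG, Pcgf2 with 5 being the exception. The GC box itself holds a CpG, and its share among windows of like CpG content was not computed. A match describes the letters only, and Cbx7 rose without an E-box in its window.

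**Figure D2:**
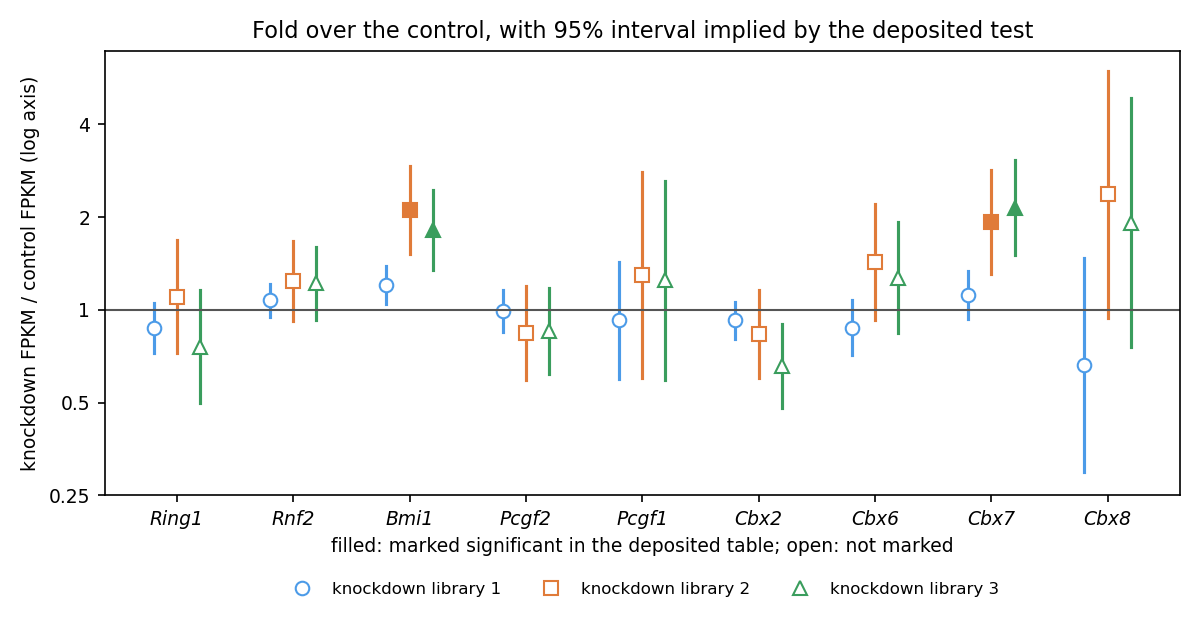
Knockdown FPKM over control FPKM for each PRC1 subunit and library on a log axis, with bars for the 95% interval implied by the deposited test and filled symbols where the deposited table marked the gene. Bmi1 and Cbx7 in libraries 2 and 3 are the 4 marked values, at 1.82 to 2.15-fold.

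The RING subunits were not called. Rnf2, which encodes RING1B, the main H2A ubiquitin ligase of stem cells, was the most abundant of the 9 genes. From chromosome 1, 153316535 to 153347953, it gave 62.3 FPKM in control cells and 66.9, 77.7 and 76.1 after knockdown. All 3 values were higher than the control, at 107%, 125% and 122% of it, and the intervals of all 3 tables included no change, the widest running from 0.924 to 1.68-fold in library 2. Ring1, its paralogue on chromosome 17 from 34157738 to 34161625, had 19.6, 24.8 and 17.1 FPKM against 22.5. Library 2 lay above the control and the others below it. Rnf2 made up 73.5% of the RING total in the control and 77.3%, 75.8% and 81.7% in the knockdown libraries, so Rnf2 was the more abundant RING transcript in every library.

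Among the other PCGF subunits, Pcgf2, the close paralogue of Bmi1 (chromosome 11 from 97550136 to 97561811), had 30.5, 25.9 and 26.3 FPKM against 30.7. All 3 values were below the control, library 1 by under 1 FPKM, and the mean was 27.5 ± 2.54 (SD, n = 3). The interval was 0.591 to 1.20-fold in library 2 and 0.621 to 1.18-fold in library 3, so both lower and slightly higher levels lie within it. Pcgf1, which builds a variant PRC1 with KDM2B and BCOR, had 8.88, 12.5 and 11.99 FPKM against 9.59 (chromosome 6 from 83028383 to 83030849). It was below the control in library 1 and above it in libraries 2 and 3, with intervals as wide as 0.602 to 2.81-fold.

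Bmi1 and Pcgf2 occupy the same place in canonical PRC1, and their order was not the same in every library. Pcgf2 was the more abundant transcript in the control and in library 1, and Bmi1 in libraries 2 and 3: Bmi1 was at 0.771 times Pcgf2 in the control and at 0.936, 1.93 and 1.64 times in libraries 1, 2 and 3. Of the FPKM summed over Bmi1, Pcgf2 and Pcgf1, Bmi1 made up 37.0% in the control and 42.0%, 56.6% and 53.0% in the knockdown libraries, a mean of 50.5% ± 7.59 (SD, n = 3). The log2 change of Bmi1 exceeded that of Pcgf2 by 0.28, 1.33 and 1.09 in the 3 libraries. Among the PCGF members these have the highest and the lowest mean change, so the difference is a description, with no test. The remaining PCGF genes, Pcgf3, Pcgf5 and Pcgf6, which are all of variant complexes, were not called. Pcgf3 had 39.7, 37.9 and 37.1 FPKM against 33.5, Pcgf5 had 15.9, 15.7 and 20.7 against 13.6, and Pcgf6 had 23.1, 27.1 and 27.9 against 24.7. Over all 6 PCGF genes the Bmi1 share was 17.4% in the control and 19.4%, 29.6% and 25.8% in knockdown.

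The other CBX subunits went different ways without being called. Cbx2, whose product compacts chromatin (chromosome 11 from 118884342 to 118892584), had 29.3, 26.5 and 20.8 FPKM against 31.6. All 3 values were below the control, and library 3 was the lowest, at 65.7% of it. There the interval was 0.481 to 0.898-fold, and the authors' deposited table gave p = 0.00849 and a q-value of 0.127, which was not marked. Cbx8, the lowest of the 9 genes, had 1.28, 4.58 and 3.71 FPKM against 1.93 (chromosome 11 from 118899749 to 118902227). It was lower than the control in library 1 and about double in libraries 2 and 3, but its intervals were the widest of the set, 0.941 to 5.97-fold in library 2 and 0.758 to 4.87-fold in library 3. Cbx2 and Cbx8 are 7165 bases apart, and in libraries 2 and 3 Cbx2 lay below the control and Cbx8 above it.

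Cbx6 had 5.63, 9.24 and 8.17 FPKM against 6.44, lower in library 1 and higher in libraries 2 and 3. Its level is uncertain, because it shares the locus on chromosome 15 from 79616780 to 79664763 with Nptxr and with the readthrough feature Cbx6-Nptxr. The readthrough feature had 9.29, 8.07 and 8.72 FPKM against 11.5, below the control throughout. Summed, Cbx6 and Cbx6-Nptxr gave 14.9, 17.3 and 16.9 against 17.9, below the control in every library, so the direction of Cbx6 in libraries 2 and 3 depends on how reads are divided between the 2 features.

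Among the CBX members, Cbx7 held a larger share and Cbx2 a smaller share in each knockdown library than in the 1 control library. Cbx2 was the more abundant of the pair in the control and in library 1, and Cbx7 in libraries 2 and 3. The ratio of Cbx7 to Cbx2 was 0.508 in the control and 0.615, 1.17 and 1.66 in libraries 1, 2 and 3. Of the FPKM summed over the 4 CBX members, Cbx7 held 28.7% in the control and 33.2%, 43.5% and 51.4% in knockdown (mean 42.7% ± 9.09, SD, n = 3). Cbx2 held 56.4% in the control and 54.0%, 37.1% and 31.0% in knockdown. The log2 change of Cbx7 exceeded that of Cbx2 by 0.28, 1.21 and 1.71. This pair too has the highest and the lowest mean change of its family, and the difference was not tested. The summed FPKM of all 9 subunits was 209, 262 and 242 against 205 in the control.

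**Figure D3:**
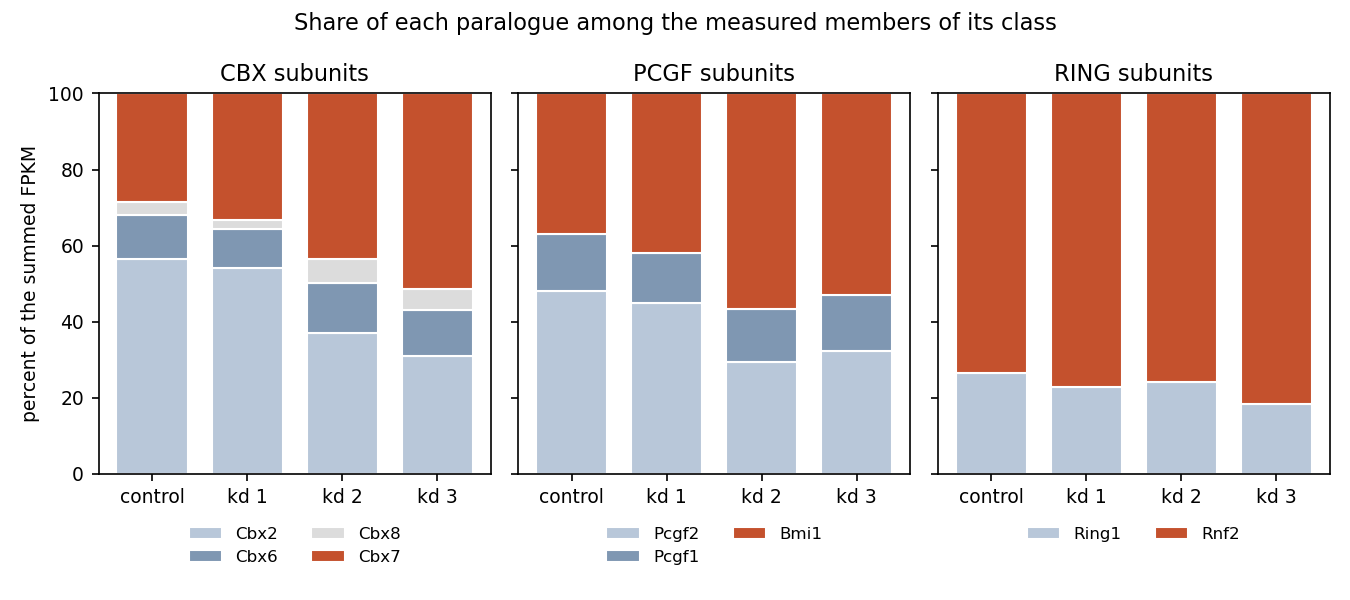
Percent of the summed FPKM held by each paralogue among the CBX, PCGF and RING members, with 1 bar for the control and 1 for each knockdown library (kd 1 to kd 3). The Cbx7 share goes from 28.7% in the control to 51.4% in library 3 and the Bmi1 share from 37.0% to 56.6% in library 2, while the Rnf2 share stays between 73.5% and 81.7%.

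Over the knockdown libraries the order of mean FPKM was Rnf2 at 73.6, Bmi1 at 40.6, Cbx7 at 27.8, Pcgf2 at 27.5, Cbx2 at 25.5, Ring1 at 20.5, Pcgf1 at 11.1, Cbx6 at 7.68 and Cbx8 at 3.19. Neighbours from Bmi1 to Ring1 overlapped in their ranges, as did Pcgf1 and Cbx6. The ranges of Rnf2 and Bmi1, of Ring1 and Pcgf1, and of Cbx6 and Cbx8 did not overlap. In the control Cbx2 and Pcgf2 followed Rnf2, then came Bmi1, Ring1 and Cbx7.

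With limma, fitted to log2(FPKM + 1) over 11968 features, 0 of the 9 genes passed an adjusted p of 0.05, and 0 had an unadjusted p under 0.05. All 9 had passed the filter on low values. For Bmi1 limma gave a log2 change of 0.72 (SE 0.34) with an adjusted p of 0.999, and for Cbx7 0.71 (SE 0.39) with an adjusted p of 0.999. The other 7 members had limma log2 changes from -0.31 for Cbx2 to 0.42 for Cbx8. The fit called 0.0251% of features higher and 0.1% lower, and at an unadjusted p under 0.05 the shares were 0.585% and 0.685%. It has 2 residual degrees of freedom. Gmnn, the target of the knockdown, had a limma log2 change of -1.59 (SE 0.56) and was not called either. A gene that the fit did not call is therefore not shown to be unchanged. The median log2 ratio of the 9 genes was -0.10, 0.35 and 0.29 in libraries 1, 2 and 3, against -0.02, 0.03 and 0.01 over all features tested. The call of Bmi1 and Cbx7 rests on libraries 2 and 3, the only ones in which they were marked. By construction of the rule both are thus still called without library 1, and 0 members are without either of the others. At a q-value under 0.01 Bmi1 alone is called.

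Of 25 other PRC1 subunits and partner proteins, 0 were called in either direction. Of all features, 1.98% were called higher and 0.905% lower, so a count of 0 among 25 is near the background. The most abundant of the 25, Skp1a, a subunit of ubiquitin ligases, had 299 ± 12.7 FPKM (SD, n = 3) against 315. The median log2 ratio was 0.06, 0.04 and 0.13 in the 3 libraries. Phc1 was marked in library 3 only and Csnk2b in library 1 only, and both are named here after their values were seen. Phc1, the Polyhomeotic subunit of canonical PRC1, had 41.5, 46.6 and 60.5 FPKM against 39.6. Kdm2b, which brings the PCGF1 complex to CpG islands, had 57.9, 45.7 and 49.4 FPKM against 55.5 and was marked in no table.

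Of 11 PRC2 genes, whose complex lays down the mark that CBX proteins read, Aebp2 rose and 0 fell. Over all features the shares were 1.98% higher and 0.905% lower. Aebp2, an accessory subunit, had 43.5, 61.4 and 59.9 FPKM after knockdown, a mean of 54.9 ± 9.92 (SD, n = 3), while the control had 35.7. As with Bmi1, all 3 libraries were above the control, and the deposited q-values of the authors' tables were 0.291, 0.0426 and 0.0388. The catalytic subunit Ezh2 had 133, 137 and 113 FPKM against 126. The median log2 ratio of the list was -0.03, 0.01 and 0.11, near that of all features.

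**Figure D4:**
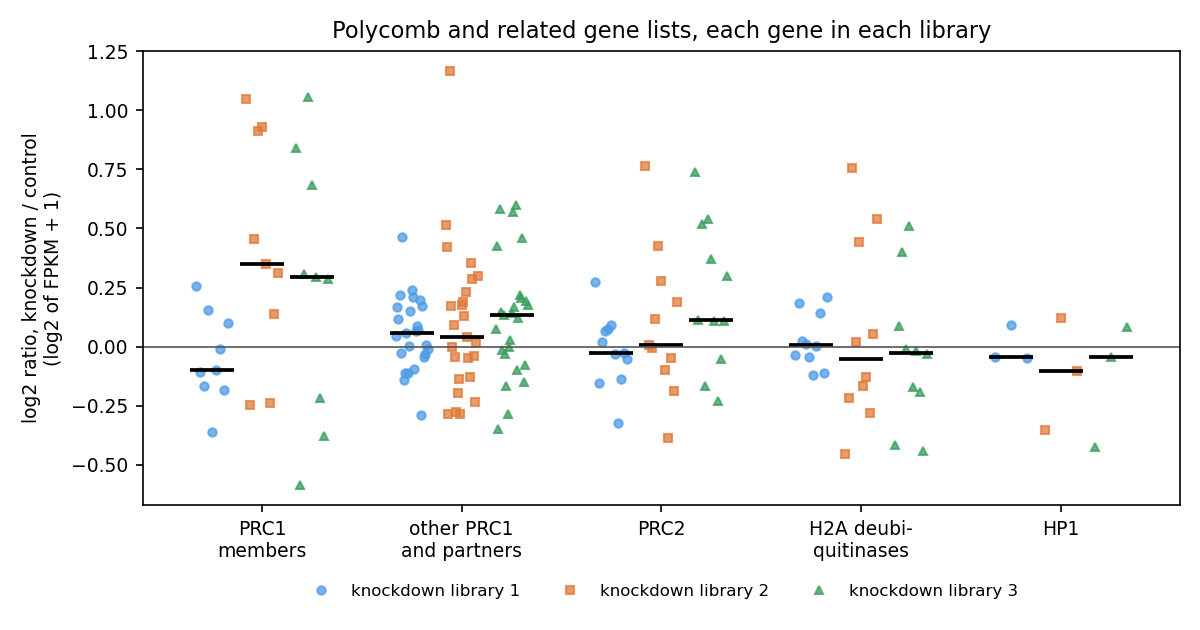
Log2 ratio of knockdown to control, on log2(FPKM + 1), for each gene of 5 lists in each library, with black bars at the medians. The PRC1 members have medians of -0.10, 0.35 and 0.29, and the medians of the other 4 lists lie between -0.10 and 0.13.

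Genes that PRC1 is known to keep silent were read from 2 lists. At the Ink4 and Arf locus, repressed by BMI1 and CBX7 in dividing cells, 0 of 2 genes were called. Cdkn2a, whose Ink4a and Arf transcripts are not separated in the tables, had 19.2, 37.6 and 39.4 FPKM against 17.8. It was marked in library 3 only, with q-values of 0.987, 0.0756 and 0.0386 in the authors' deposited tables, and it was high in the same libraries as Bmi1 and Cbx7. Cdkn2b had 3.85, 2.90 and 5.96 FPKM against 3.35. Of 39 Hox genes, 16 could be called and 8 rose: Hoxa4, Hoxb4, Hoxb7, Hoxb8, Hoxc4, Hoxc5, Hoxd3 and Hoxd4, while 0 fell. Over all features with enough usable tests the shares were 1.98% higher and 0.905% lower. Hoxb7, Hoxb8 and Hoxc5 had 0.144, 0.251 and 0.121 FPKM in the control and no test in library 1. They count among the 16 only through libraries 2 and 3, where they were high. A gene near 0 in the control could hardly be called lower. Hoxb4 had 1.75, 33.1 and 19.6 FPKM against 1.62. Hoxd3 and Hoxd4 are given 1 shared locus in the tables, so their levels are uncertain. The control level of Hoxa4 differed between tables, at 0.625, 0.708 and 0.593 FPKM, and is uncertain too. All of the 8 except Hoxb4 were under 1 FPKM in the control. The called Hox genes rose in the libraries where the neuron and pluripotent cell marker sums and the fibroblast median ratio were high. In those libraries the epithelial marker sum was low. The part of those cells was not tested.

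The gene next to Bmi1, Commd3, ends 801 bases from it and had 48.9, 83.7 and 70.0 FPKM against 49.5. It was not marked in any table, at 98.8%, 169% and 141% of the control, and like Bmi1 it was highest in library 2. Among 337 other features that met the study's rule with a mean of at least 1 FPKM, the 3 whose log2 ratios over the 3 knockdown libraries lay nearest to those of Bmi1 by Euclidean distance were Tubb2a, Dpysl3 and Clk1, at distances of 0.13, 0.14 and 0.15 log2 units. Those nearest to Cbx7 were Etv1, Asns and Mthfd2, at 0.08, 0.10 and 0.12. Bmi1 and Cbx7 were 0.28 apart. Likeness over 3 libraries that share a control is a description.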

How the data were processed

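The authors deposited 3 Cuffdiff tables, each setting 1 knockdown library against the shared control. TopHat, Cufflinks, Cuffdiff and the build mm9 come from the submitters' processing notes. Neither their versions nor an annotation is given in the sources used here. Levels, per the file headers, are FPKM, with a Cuffdiff p-value, a q-value (a score, since the deposited values exceed 1 in places), a log ratio and a test statistic (both deposited scores). Between tables, 90.7% to 91.2% of features had the same control value to within 0.1%. Each ratio was therefore taken inside its table. The interval of a fold is its log ± 1.96 standard errors, the error being the deposited log ratio over the test statistic. It holds no spread between cultures. Counts are not given. Relative depth came from features too low for a test, of which 84.8% to 87.9% had ratios within 0.2% of whole reads up to 12.

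Of 21690 features, 14477 had at least 2 usable tests. In R 4.3.3, limma 3.58.1 with a trended prior was fitted to log2(FPKM + 1), on 11968 features usable in every table with a mean FPKM of at least 1, after tests on simulated data. The simulated libraries shared a common spread, so those tests do not show what the fit can find in these libraries. Each knockdown value was placed relative to the control of its table, and the lone control is assumed to vary as the knockdown libraries do. P-values were adjusted by Benjamini-Hochberg over all features tested. No exact permutation test was run, as the smallest p for 3 against 1 is 0.25 one-sided and 0.5 two-sided. The labels call the knockdown experiments independent.

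The members, lists and tests were chosen with earlier results of these data known. Named were the 9 members, Gmnn, the called genes of each related list or else its most abundant gene, and the 3 called features nearest in pattern to each called member. Other genes are named as chosen after their values were seen, or as neighbours or family members. Those are Nptxr, Cbx6-Nptxr, Commd3, Cdkn2b, Phc1, Csnk2b, Kdm2b, Ezh2, Cbx1, Cbx5, Pcgf3, Pcgf5, Pcgf6, Hoxa2, Hoxb1 and Hoxb2. The cell type markers Lum, Fn1, Col1a1, Col1a2, Col3a1, Stmn2, Hes5 and Notch1 are also named after their values were seen. Alternatives changed the number of marked tables, the q threshold, the pseudocount, the filter, the scaling, the control value and the libraries included. Results for 1 further gene are not reported here. The 2 deposited files that repeat marked features were not used.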

Additional observations from a re-analysis of the deposited data

How the results depend on the processing

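By the study's rule 2 PRC1 members were higher. With a mark required in all 3 tables the count was 0, and with a q-value under 0.01 it was 1. Leaving out 1 knockdown library gave 0 to 2: 2 without library 1, and 0 without library 2 or library 3. In each case both remaining tables had to mark a gene. For the members these counts thus follow from the marks by construction and are no further test. Over all features, 286 were higher and 131 lower. With marks in all 3 tables these were 3 and 14, with 1 mark enough they were 758 higher and 510 lower, and with a q-value under 0.01 161 and 93. Leaving out 1 library gave 12 to 272 higher and 22 to 120 lower, the low counts being those without library 2 or library 3. Limma called 15 features, against 9 with a pseudocount of 0.1, 7 without a filter on low values, and 6 to 28 with 1 library left out, 28 without library 1 and 6 without library 3, and the cause was not tested. It called 0 members under every alternative run, the lowest adjusted p of a member being 0.361 for Cbx7 without library 1. The mean log2 ratio of each member kept its sign under each other pseudocount, filter, scaling and left-out library run, with 0.55 to 0.94 for Bmi1 and 0.53 to 0.98 for Cbx7. With Cbx6 and Cbx6-Nptxr summed, an alternative chosen after seeing the data, that of Cbx6 was -0.12 in place of 0.20. No paired analysis was possible because the control group has 1 library. Absolute depth is unknown, and the implied standard error limits what Cbx8 and Pcgf1 can show.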

Other observations

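The HP1 chromobox genes, which carry a chromodomain like the CBX subunits of PRC1 but bind the histone mark of constitutive heterochromatin, were far more abundant than the Polycomb CBX genes, and 0 of 3 were called. With 1.98% of all features called higher and 0.905% lower, that count is near the background. Cbx3, the most abundant, averaged 262 ± 15.9 FPKM (SD, n = 3) after knockdown, and the control had 251. Cbx1 had 226, 182 and 173 FPKM in libraries 1, 2 and 3 against 233, below the control in each, and Cbx5 had 145, 139 and 159 against 149.8 and lay on both sides of it.

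Of 10 genes for enzymes that remove ubiquitin from histone H2A, the reverse of the PRC1 reaction, and their partners, 0 were called. This too is near the background of 1.98% higher and 0.905% lower over all features. Bap1, the most abundant, averaged 42.5 ± 0.434 FPKM (SD, n = 3), and the control had 42.3. The median log2 ratio of this list was 0.01, -0.05 and -0.02 in libraries 1, 2 and 3.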
